A study of Homo sapiens with 4 samples.

Results

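Epithelial identity is held in part by a small set of regulators, and 10 of them were followed here: the splicing regulators ESRP1 and ESRP2, the Grainyhead-like factors GRHL1, GRHL2 and GRHL3, the zinc finger factor OVOL1, the ETS factors EHF and ELF3, the Kruppel-like factor KLF5 and the p53 relative TP63. They were chosen by name, with earlier results of these data known, and so were the gene lists used below. Their counts beside the shares of all genes are therefore a description and cannot show enrichment. A gene was read from the probe set annotated to its symbol alone. Of the 10 genes, 9 had such a probe set, exactly 1 each, among 20934 genes that were measured in this way. TP63 was not analysed here.

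The RNA came from MCF10A, a non-tumorigenic line of human breast epithelium, grown untreated in SFIHE medium. Each of 4 stable transfections was measured on 1 array: LacZ (a bacterial enzyme used as control), Her2 (the receptor tyrosine kinase ERBB2), PIK3CA with the H1047R change (a lipid kinase's catalytic subunit), or Her2 together with this mutant PIK3CA. The array of the last group is called the array labelled both. The sources used here do not say which promoter drives the introduced genes, or whether a line is a clone or a pool. The study asked which genes are under the control of either gene or of the pair. With 1 array a group no difference has a replicate check, no test between groups was made, and the spread is unknown. Values are on the log2 scale, where 1 unit equals 2-fold.

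The arrays had medians from 1.13 to 1.17 over all 53617 probe sets, and a value near that median is taken as background. The check of the introduced gene went against the labels. ERBB2 (probe set 16833839, shared with MIR4728) read 5.96 on LacZ, 4.29 on Her2, 8.48 on mutant PIK3CA and 7.39 on both, each name standing for an array by its label. Every direction below is therefore given for an array by its label. The basal keratin gene KRT5 read 7.08 to 7.52, far above the array medians, and the luminal receptor gene ESR1 read 0.51 to 0.66, below them. The other luminal markers were mixed. MUC1 (6.52 to 7.83), GATA3 (3.88 to 4.77), KRT8 (2.40 to 3.65) and KRT18 (2.41 to 2.79) were above the medians. FOXA1 (1.39 to 1.65) and KRT19 (1.30 to 1.61) were near them, and PGR (0.39 to 0.86) was below. KRT14, another basal keratin gene, read 1.47 to 3.43, close to background on LacZ. The other measured basal markers were EGFR (7.16 to 8.62), ITGB4 (8.22 to 9.51), CDH3 (4.98 to 8.22), S100A2 (5.05 to 6.49) and SFN (8.67 to 10.4). Of the 7 basal markers, CDH3 (-3.24) and ITGB4 (-1.30) were at least 2-fold lower on both than on LacZ, beside 4.44% of all genes. KRT14 (1.96) was that much higher, beside 6.51%.

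Each family has its own task. ESRP1 and ESRP2 bind GU-rich elements in pre-mRNA and direct the epithelial choice of exons in transcripts such as FGFR2 and CD44. GRHL factors bind DNA near genes of the apical junctions and switch them on, and OVOL factors repress genes of the mesenchymal state. EHF and ELF3 belong to the epithelium-specific branch of the ETS family, KLF5 supports growth and barrier genes in many epithelia, and TP63 maintains basal cells. During an epithelial-mesenchymal transition (EMT), repressors such as ZEB1 and the SNAI factors, which bind E-boxes in DNA, lower many of these genes.

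The stretch of 250 bases before the transcription start was held for 6 of the 10 genes in the RefSeq table (build GRCh38.p14), as 9 windows. The window of ELF3 and the first of EHF are shown because both ETS factors were lower on the array labelled both, and the first GRHL3 window because it holds an E-box although GRHL3 lay at background. Capitals mark the E-box of the ZEB1 and SNAI class, CAGGTG or, on the other strand, CACCTG. The ELF3 window is chr1:202010337-202010586, the EHF window chr11:34624007-34624256 and the GRHL3 window chr1:24319107-24319356, all on the plus strand.
ELF3: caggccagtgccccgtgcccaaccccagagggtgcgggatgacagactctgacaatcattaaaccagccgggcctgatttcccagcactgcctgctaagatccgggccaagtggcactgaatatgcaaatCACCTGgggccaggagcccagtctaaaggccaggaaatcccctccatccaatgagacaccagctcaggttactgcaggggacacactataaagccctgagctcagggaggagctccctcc
EHF: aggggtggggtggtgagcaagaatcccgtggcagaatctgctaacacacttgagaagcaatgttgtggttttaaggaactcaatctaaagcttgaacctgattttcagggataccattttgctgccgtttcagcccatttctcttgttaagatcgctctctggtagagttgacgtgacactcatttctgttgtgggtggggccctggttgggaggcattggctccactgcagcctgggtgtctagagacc
GRHL3: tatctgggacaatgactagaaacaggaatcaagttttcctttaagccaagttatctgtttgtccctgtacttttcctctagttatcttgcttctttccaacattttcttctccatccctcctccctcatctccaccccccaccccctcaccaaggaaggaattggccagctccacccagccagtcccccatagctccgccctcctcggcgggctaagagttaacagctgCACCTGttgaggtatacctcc
The E-box begins 120 bases before the start in ELF3 and 21 bases before it in GRHL3. It was found in 2 of the 9 windows, against 17.5% of all 35116 windows of that length. The related E-box CAGGTA, which reads TACCTG on the other strand, was in 0 of the 9, against 7.99% of all windows. A Grainyhead motif, AACCNGTT, which reads AACNGGTT on the other strand, was in 0 of the 9, against 1.49%. The motifs do not overlap each other here, and a match is only a match of letters.

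Over the 9 measured genes, 5 read lower by 2-fold or more on the array labelled both than on LacZ, and 0 read higher by that much. The 5 were ESRP1, ESRP2, GRHL2, EHF and ELF3. Of all 20934 genes, 4.44% were that much lower and 6.51% that much higher in that comparison. Among the 4313 genes with a value of 5 or more on any array, called genes reaching 5 below, 11.1% were that much lower. Of the 9 genes 5 reached 5 (ESRP1, ESRP2, GRHL2, EHF and KLF5), and 4 of those 5 were that much lower. Counts below cover all measured genes of a set, also those that did not reach 5, unless stated. The median difference of the 9 genes was -1.16, against -0.04 for all genes. In 6 of the 9 the array labelled both held the lowest of the 4 values, against 30.6% of all genes and 30.8% of the genes reaching 5. The 6 include GRHL3, which was near background on all 4 arrays. In a bulk sample, fewer cells with a transcript and less of it per cell cannot be told apart.

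**Figure D1:**
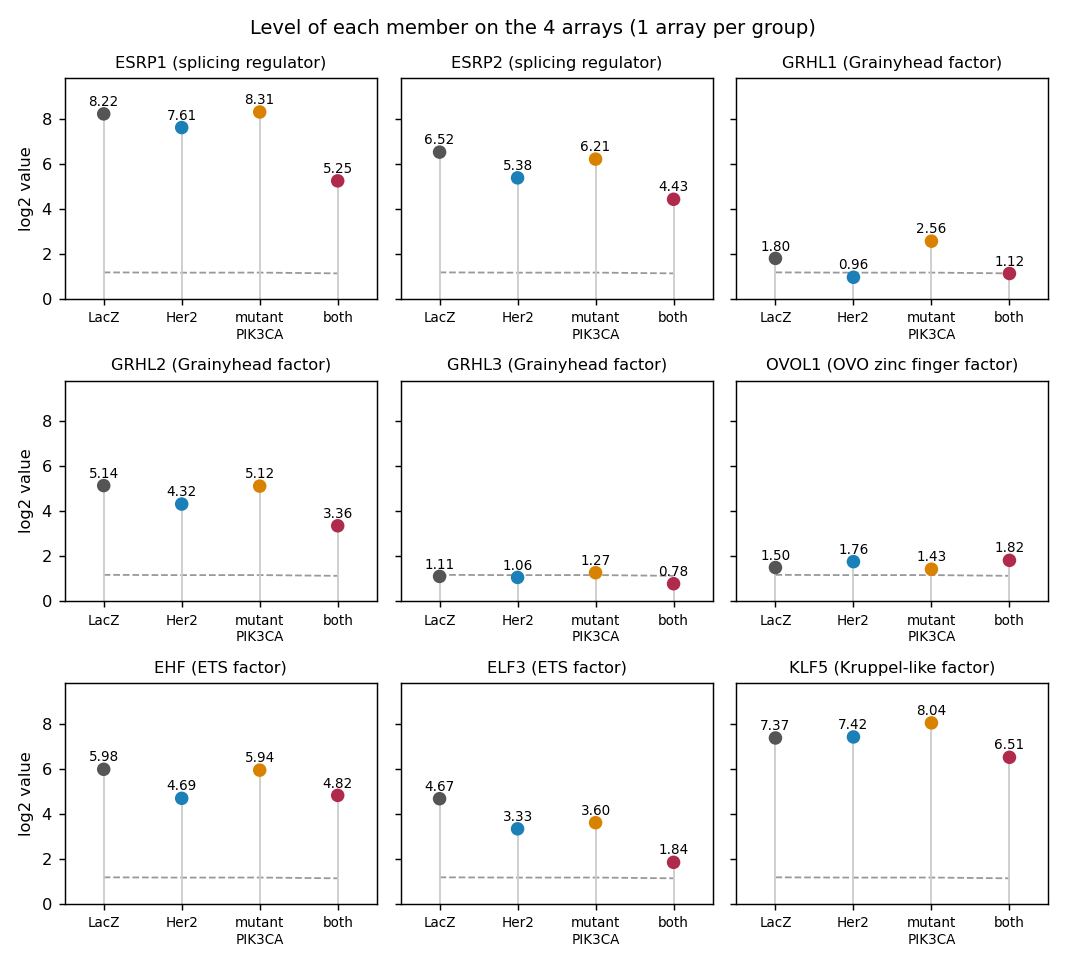
Log2 value of each measured gene on the 4 arrays, 1 point per array, with the array medians over all probe sets as a dashed line. ESRP1, ESRP2, GRHL2, ELF3 and KLF5 are lowest on the array labelled both, EHF is low on the arrays labelled Her2 and both, and GRHL1, GRHL3 and OVOL1 stay under 3 on every array.

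Some markers of fibroblasts moved with these results. Of 8 measured, 3 were at least 2-fold higher on both than on LacZ, DPT (4.45), DCN (4.32) and LUM (5.48), and 2 on Her2, DPT (4.97) and FAP (1.57). Over all genes 6.51% were that much higher on both and 1.86% on Her2 (13.8% and 2.94% of the genes reaching 5). The mean log2 value of the 8 was 1.85 on LacZ, 2.62 on Her2, 2.01 on mutant PIK3CA and 3.61 on both. Their median difference from LacZ was small, at -0.04 on Her2, 0.21 on mutant PIK3CA and 0.24 on both. The collagen genes COL1A1 (1.79 to 2.24) and COL1A2 (0.73 to 0.87) and the receptor gene PDGFRB (0.86 on LacZ, 0.82 on both) were near background on all arrays. DCN (0.73) and LUM (0.78) were under the array median on LacZ, so their differences are lower bounds. Of 5 leukocyte markers, 1 was at least 2-fold higher on both than on LacZ: CD68, a lysosomal protein, which read 4.68 on LacZ and 6.78 on both, while PTPRC, which defines leukocytes, read 0.53 to 0.93. Of 5 endothelial markers 0 passed 2-fold in that comparison. KDR, a receptor of vascular endothelial growth factor, read 3.83 on LacZ, 3.57 on Her2, 2.03 on mutant PIK3CA and 4.81 on both, while CDH5 read 0.66 to 0.88. The part of these markers in the results was not tested.

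ESRP1 and ELF3 had the largest differences of the 9 genes between both and LacZ, and their order is not settled because ELF3 is near background on the array labelled both. ESRP1 (probe set 17070949) read 8.22 on the array labelled LacZ, 7.61 on Her2, 8.31 on mutant PIK3CA and 5.25 on both. The arrays labelled LacZ, Her2 and mutant PIK3CA thus lay within 1 log2 unit of each other, and the array labelled both stood alone below them. It differed from LacZ by -2.98, a level 7.88-fold lower, from mutant PIK3CA by -3.06 and from Her2 by -2.37.

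ESRP2 (probe set 16827574), the paralogue of ESRP1, was graded rather than split. It read 6.52 on LacZ, 5.38 on Her2, 6.21 on mutant PIK3CA and 4.43 on both. The array labelled Her2 was already 2.21-fold lower than LacZ (a log2 difference of -1.14), and the array labelled both was 4.28-fold lower (-2.10). Both paralogues were therefore low together on the array labelled both, at 5.25 and 4.43, while still above its median of 1.13.

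These probe sets give gene levels, so splicing itself was not measured. Of 15 listed transcripts whose exons ESRP proteins are known to regulate, 13 were measured, and their gene levels had a median difference of 0.16 between the arrays labelled both and LacZ, with 3 at least 2-fold lower and 0 higher. Lower by that much were 4.44% of all genes and 11.1% of the genes reaching 5. Of the 8 transcripts reaching 5, 1 was lower, a share near that of genes in general. CD44, a hyaluronan receptor with ESRP-dependent variant exons, read 7.79 on LacZ and 7.59 on both. TCF7L2, a Wnt pathway factor, differed by -1.16, OSBPL3, an oxysterol-binding protein, by 0.77 and RALGPS2 by 0.72. FGFR2, the classic ESRP target, read 0.66 to 1.43 on the 4 arrays, at background.

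Other splicing factors that act on exons of the EMT differed less and in mixed directions. Of 16 measured, 0 were lower and 1 was higher by 2-fold or more on both than on LacZ, with a median of 0.31. The 1 higher gene is a share near the 6.51% of all genes, beside 13.8% of the genes reaching 5. The higher one was TRA2B, an activator of exon inclusion, at 5.49 on LacZ and 6.84 on both. QKI and RBFOX2, which promote mesenchymal exon choices, differed by 0.95 and 0.27 and were picked after their values were seen. MBNL1 differed by 0.63, SRSF1 by 0.64, MBNL2 by -0.50 and PTBP1 by -0.60.

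Among the Grainyhead factors, GRHL2 was the one with a clear signal. GRHL2 (probe set 17071497) read 5.14 on LacZ, 4.32 on Her2, 5.12 on mutant PIK3CA and 3.36 on both. The arrays labelled LacZ and mutant PIK3CA were level (a difference of -0.02), Her2 lay 0.82 log2 units under LacZ (a difference of -0.82) and both lay 3.45-fold under it (-1.79). GRHL1 (probe set 16876978), an activator of desmosomal cadherin genes, read 1.80, 0.96, 2.56 and 1.12 in the same order. It was at background on the arrays labelled Her2 and both, and its largest difference was 1.61 between mutant PIK3CA and Her2. GRHL3 (probe set 16660757), which serves late barrier formation, read 1.11, 1.06, 1.27 and 0.78, so it was near background on all 4 arrays and its differences are not informative.

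Genes listed as Grainyhead targets were lower on the array labelled both. Of 17 listed and measured, 13 were at least 2-fold lower than on LacZ and 0 were higher, with a median of -1.59. In that comparison 4.44% of all genes and 11.1% of the genes reaching 5 were that much lower. The junction receptor gene LSR differed by -4.72, E-cadherin (CDH1) by -4.27, the membrane protease gene PRSS8 by -4.03, its inhibitor SPINT1 by -3.63, the claudin CLDN7 by -3.26 and the GTPase gene RAB25 by -2.72. For Her2 against LacZ 6 of the 17 passed 2-fold downwards (median -0.72), beside 1.67% of all genes and 2.57% of the genes reaching 5. For mutant PIK3CA against LacZ 1 did (median -0.22), beside 1.93% and 4.08%, a share near that of genes in general.

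OVOL1 (probe set 16727074) was slightly higher on the array labelled both than on LacZ (0.32). It read from 1.43 on mutant PIK3CA to 1.82 on both, with 1.76 on Her2 and LacZ just above mutant PIK3CA, so all values lay within 0.39 log2 units and near background. Its relative OVOL2, a repressor of ZEB1, read 3.36 on LacZ, 2.84 on Her2, 3.65 on mutant PIK3CA and 2.58 on both. OVOL2 was lowest on the array labelled both and next lowest on Her2, as GRHL2 was, with a difference of -0.78 between both and LacZ; it was named because it is the closest relative of OVOL1.

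The ETS factors differed from each other. EHF (probe set 16723569) read 5.98 on LacZ, 4.69 on Her2, 5.94 on mutant PIK3CA and 4.82 on both. The values formed 2 levels, a higher one on the arrays without the Her2 label and a lower one on the arrays with it. EHF was 2.45-fold lower on Her2 than on LacZ and 2.18-fold lower on both than on mutant PIK3CA.

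ELF3 (probe set 16675924) was lower on each array with an introduced oncogene than on LacZ. It read 4.67 on LacZ, 3.33 on Her2, 3.60 on mutant PIK3CA and 1.84 on both. The array labelled both was 7.11-fold lower than LacZ (-2.83), and at 0.71 log2 units above its array median it was close to background, which limits the size of this difference. ELF3 was the only one of the 9 genes at least 2-fold lower on mutant PIK3CA than on LacZ (-1.07), where 1.93% of all genes and 4.08% of the genes reaching 5 were. ELF3 itself did not reach 5.

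KLF5 (probe set 16775364) read 7.37 on LacZ, 7.42 on Her2, 8.04 on mutant PIK3CA and 6.51 on both. LacZ and Her2 were level, mutant PIK3CA lay 1.59-fold above LacZ and both lay 1.81-fold below it. Between both and mutant PIK3CA the difference was -1.53, or 2.89-fold.

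Genes listed as targets of the ETS factors and KLF5 were lower on the array labelled both where they reached 5, and mixed otherwise. Of 18 measured, 7 were lower and 1 was higher by 2-fold or more on both than on LacZ, with a median of -0.50. The shares over all genes were 4.44% lower and 6.51% higher, and among the genes reaching 5 they were 11.1% and 13.8%. Of the 6 listed genes that reached 5, 6 were that much lower and 0 higher, with a median of -1.79. The protease inhibitor gene PI3 differed by -2.34, the chemokine gene CXCL16 by -2.10, the protease gene PLAU by -1.47, the mucin gene MUC1 by -1.32 and the keratin gene KRT7 by -1.04. CLDN7, which is also in the Grainyhead list, differed by -3.26. CXCL16 and KRT7 were as low on the array labelled Her2 (differences from LacZ of -2.13 and -1.23), as was EHF. The higher gene was SPRR1B, a cornified envelope precursor, which read 1.12 on LacZ and 2.62 on both and was highest on mutant PIK3CA, at 4.42.

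TP63 itself was not analysed here, but genes listed as its targets were. Of 20 measured, 5 were lower and 2 were higher by 2-fold or more on both than on LacZ, with a median of -0.44. Over all genes 4.44% were that much lower and 6.51% that much higher, and among the genes reaching 5 the shares were 11.1% and 13.8%. The basal keratin gene KRT15 differed by -3.36, the desmoglein DSG3 by -1.94, the laminin chain LAMB3 by -1.67 and the integrin ITGB4 by -1.30, whereas the cytolinker gene DST differed by 2.05 and PERP, a desmosomal protein, by -0.83. Against mutant PIK3CA, 11 of the 20 were at least 2-fold lower on both, beside 3.48% of all genes and 8.9% of the genes reaching 5. On mutant PIK3CA 5 were at least 2-fold higher than on LacZ, LAMB3 among them at 1.54, beside 2.61% of all genes and 7.07% of the genes reaching 5.

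**Figure D2:**
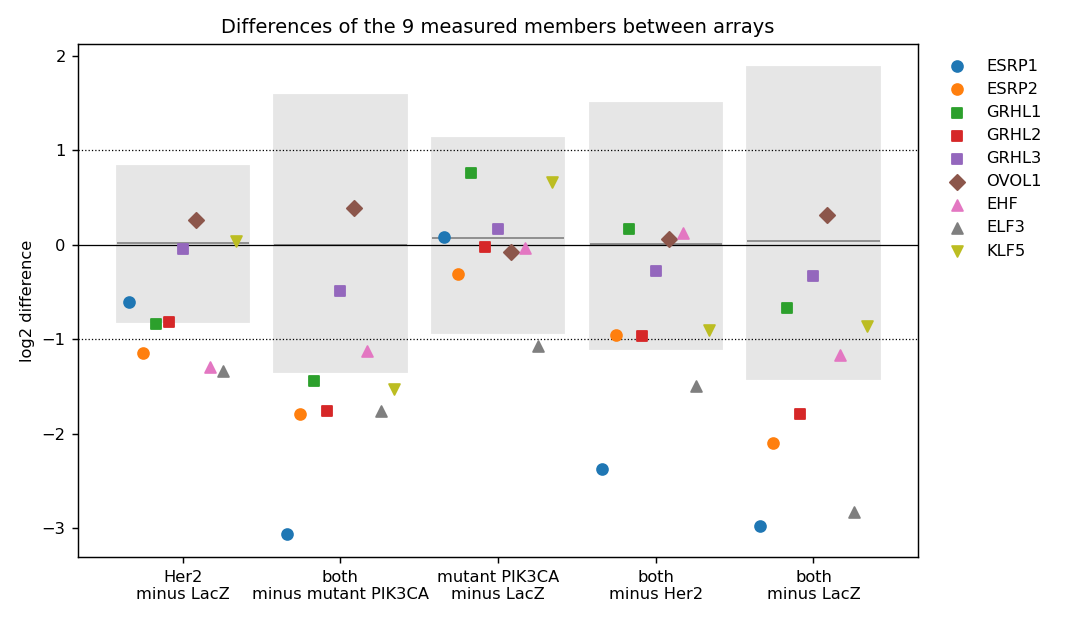
Log2 difference of each measured gene in 5 comparisons. Grey boxes span the 5th to 95th percentile of the 4313 genes reaching 5, grey lines are their medians and dotted lines mark 2-fold. When the array labelled both is set against LacZ and against mutant PIK3CA, ESRP1, ESRP2, GRHL2 and ELF3 lie under the boxes.

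The arrays offer 2 comparisons with and without the Her2 label that share no array: Her2 with LacZ, and both with mutant PIK3CA. In the first, 3 of the 9 genes were at least 2-fold lower, against 1.67% of all genes and 2.57% of the genes reaching 5. Of the 5 members reaching 5, 2 were. In the second, 7 were, against 3.48% of all genes and 8.9% of the genes reaching 5. The 7 were ESRP1, ESRP2, GRHL1, GRHL2, EHF, ELF3 and KLF5, and they include all 5 members reaching 5. GRHL1 stayed under 3 on every array and was at background on both (1.12). ESRP2 (-1.14 and -1.79), EHF (-1.29 and -1.12) and ELF3 (-1.34 and -1.76) were at least 2-fold lower in both comparisons. These 3 of 9 stand beside 0.425% of all genes and 1.21% of the genes reaching 5. ELF3, at 4.67 or less, did not reach 5.

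GRHL2 was lower in both comparisons too, by less than 2-fold in the first (-0.82 and -1.76). ESRP1 (-0.61 and -3.06) and KLF5 (0.04 and -1.53) were unequal between them. EHF was the most even of the genes that passed 2-fold in both comparisons.

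The mutant PIK3CA label gives a second set of 2 comparisons without a shared array: mutant PIK3CA with LacZ, and both with Her2. Only ELF3 was at least 2-fold lower in both (-1.07 and -1.49), 1 of 9 beside 0.406% of all genes and 1.16% of the genes reaching 5. ELF3 did not reach 5, so no member reaching 5 was lower by that much in both. In the second of them ESRP1 and ELF3 were at least 2-fold lower, 2 of 9 beside 2.64% of all genes and 6.12% of the genes reaching 5. Of the 5 members reaching 5, 1 was (ESRP1). ESRP2 (-0.95), GRHL2 (-0.97) and KLF5 (-0.90) lay just under that size. After quantile normalization ESRP2 (-1.06) and GRHL2 (-1.09) passed it, which made 4. EHF did not take part, with -0.04 and 0.13.

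The arrays labelled mutant PIK3CA and Her2 can also be set against each other. GRHL1 and EHF were at least 2-fold higher on mutant PIK3CA (1.61 and 1.25), 2 of 9 beside 2.72% of all genes and 6.14% of the genes reaching 5. GRHL1 was at background on Her2 (0.96), so its difference is a lower bound, and with a filter on level at 3 or 5 only EHF is counted. Since the ERBB2 values put the labels of these arrays in doubt, the direction of this comparison rests on the labels alone. The comparison of both with LacZ does not use the labels of these arrays, but its own labels had no check other than ERBB2.

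Departure from additivity asks whether the array labelled both lies where the sum of the single differences would put it. ESRP1 lay lower than that sum by 2.45 log2 units (a departure of -2.45): the single differences from LacZ were -0.61 and 0.08, and the difference on both was -2.98. KLF5 departed by -1.57, with single differences of 0.04 and 0.67. These 2 of 9 genes passed 2-fold, beside 4.35% of all genes and 9.07% of the genes reaching 5.

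The other 7 genes lay closer to the sum. GRHL2 departed by -0.94 (-1.03 after quantile normalization, past 2-fold), ESRP2 by -0.64, ELF3 by -0.42 and EHF by 0.17. The low ELF3 value on the array labelled both limits how far its departure can reach. The paralogues ESRP1 and ESRP2 thus ended low on the same array with unequal single differences.

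**Figure D3:**
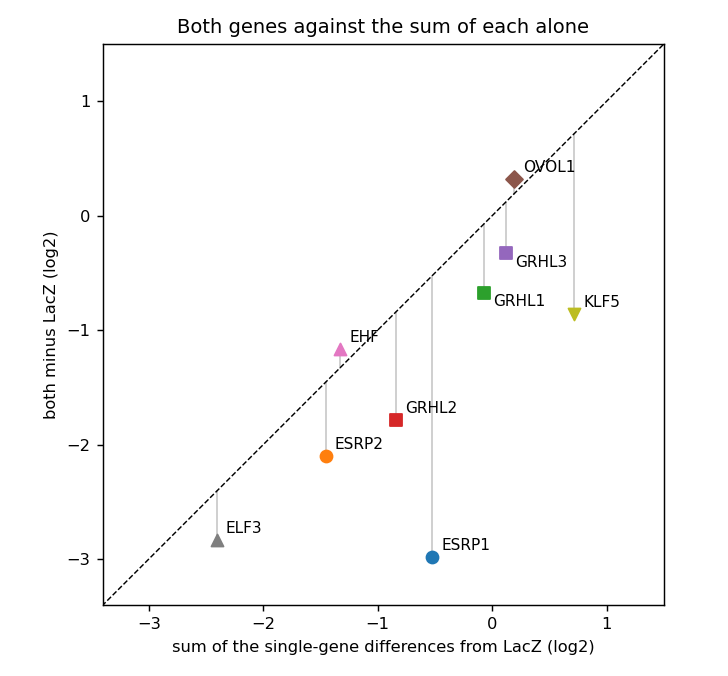
Difference between the arrays labelled both and LacZ against the sum of the differences of the arrays labelled Her2 and mutant PIK3CA from LacZ, in log2 units. Grey lines run from each gene to the dashed line of additivity; they are longest for ESRP1 (-2.45) and KLF5 (-1.57) and short for EHF (0.17).

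The likeness of patterns was taken as the Euclidean distance between log2 values over the 4 arrays, each gene centred on its own mean, among the genes reaching 5. With 4 points this is a description only. ESRP2 and GRHL2 were the closest pair among the 9 genes, at 0.27 log2 units, and only 7 of 4311 other genes lay closer to GRHL2 than ESRP2 did. ESRP1 lay farther from ESRP2, at 1.10. Of 4311 other genes, 62 lay closer to ESRP1 than ESRP2 did, and 459 lay closer to ESRP2 than ESRP1 did.

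The genes most like ESRP1 were MAP7, a microtubule-binding protein of epithelia, at 0.13, the claudin CLDN7 at 0.31, P-cadherin (CDH3) at 0.31, the amino acid transporter SLC7A5 at 0.37 and the antiprotease SLPI at 0.39. MAP7 differed from LacZ by -0.47 on Her2, 0.04 on mutant PIK3CA and -2.96 on both, beside -0.61, 0.08 and -2.98 for ESRP1. The genes most like GRHL2 were the clock gene PER1 at 0.08, the keratin pseudogene KRT16P2 at 0.10, TRIM8 at 0.13, the pseudokinase gene TRIB1 at 0.15 and the transporter pseudogene SLC7A5P1 at 0.15. The probe sets of both pseudogenes could read their parent genes. OVOL1 was nearly level, and so were the genes most like it, STX7, SCARB2, ENTPD4, ZNF655 and CD59, all within 0.07.

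Of other transcription factors of epithelia, 21 of 23 listed were measured. On both against LacZ 6 were at least 2-fold lower and 0 higher, with a median of -0.59. That count stands beside 4.44% of all genes and 11.1% of the genes reaching 5. SOX9, a factor of progenitor cells, read 8.32 on LacZ, 7.37 on Her2, 8.94 on mutant PIK3CA and 5.27 on both, a difference of -3.04. TFAP2C, an AP-2 factor, read 6.67 on LacZ and 5.17 on both, PRDM1 differed by -1.08, and TRPS1, a GATA-type repressor, by 0.05. KLF4, the relative of KLF5, read 3.64, 3.51, 4.68 and 3.05, highest on mutant PIK3CA as KLF5 was.

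Among 9 repressors of epithelial genes, 2 were at least 2-fold higher on both than on LacZ and 0 were lower, with a median of 0.33. The 2 stand beside 6.51% of all genes and 13.8% of the genes reaching 5. ZEB1 read 1.08, 1.97, 1.76 and 3.36, so it was at background on LacZ and highest where ESRP1 was lowest. TWIST1 read 4.02, 5.84, 3.99 and 5.22, high on the 2 arrays on which EHF was low. SNAI2 was high throughout, at 9.32 to 9.81. Probe sets of 7 microRNA genes listed for epithelia, the miR-200 family among them, read 0.22 to 1.73, at background on all arrays. Whether these probe sets read mature microRNA was not tested, so the values do not show its absence.

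**Figure D4:**
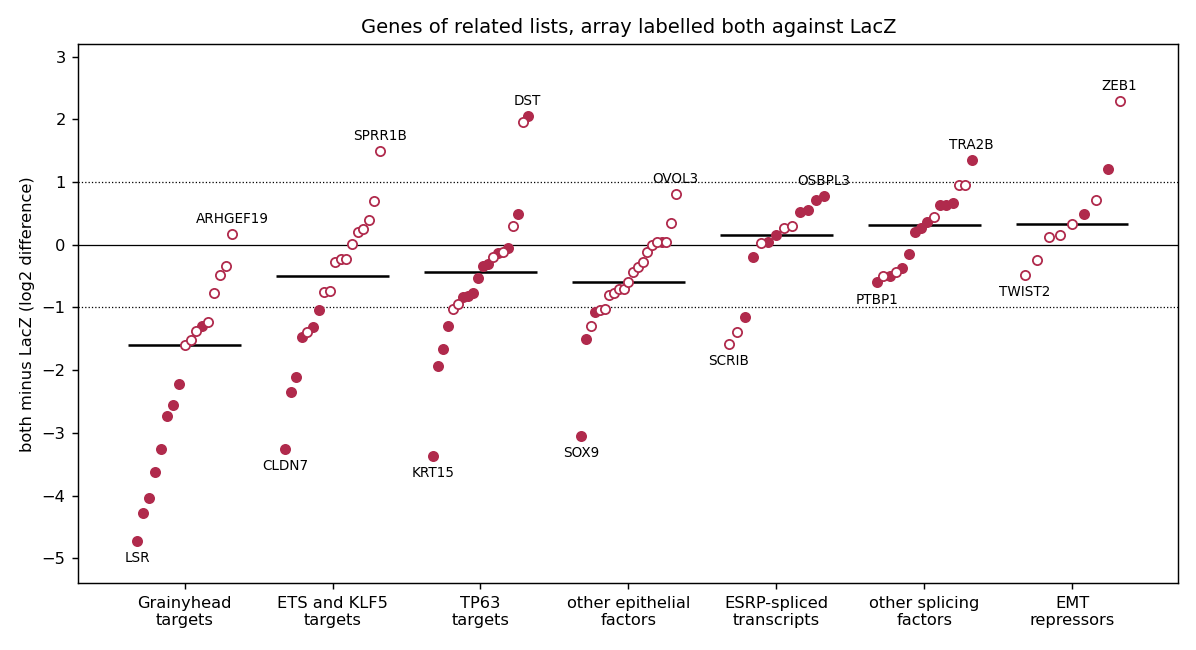
Difference between the arrays labelled both and LacZ for the measured genes of 7 lists, with list medians as bars and dotted lines at 2-fold. Filled points are genes reaching 5 on any array, open points are not; Grainyhead targets reach down to LSR at -4.72, and ZEB1 stands highest among the EMT repressors at 2.28.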

How the data were processed

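RNA of 4 MCF10A lines was hybridised to 1 array each. The deposited values are log2 values per probe set, made by RMA (R package oligo) according to the labels, per the submitters' processing notes. Versions and filters: not given in the sources used here, and the log base follows from RMA and the range of values. RMA subtracts background and equalises arrays, so a shift shared by all genes would not show. Precision is limited by the number of arrays.

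The platform annotation gave 1 symbol for 23871 of 53617 probe sets, several for 1842 and none for 27904; 90 symbols were updated through RefSeq identifiers. Where a gene had several probe sets, that of the highest mean was used. Small RNAs, ERBB2 and PIK3CA were left out of counts over all genes. A gene was counted at a log2 difference of at least 1, without a filter on level; shares among genes reaching 5 stand beside. No test was made, and counting was tested on simulated data. The genes and lists were chosen with earlier results of these data known. All 10 genes were named; of each list at most 6 genes that reached 5, with the largest difference between both and LacZ; 5 neighbours each of ESRP1, GRHL2 and OVOL1 (planned for TP63 too); and genes near background where a statement turns on them. CDH5, KDR, KLF4, OVOL2 and PTPRC were chosen for their family or role, and the measured basal and luminal markers were all named. CD68 and SPRR1B were named because they were at least 2-fold higher on both than on LacZ. Alternatives were quantile and cyclic loess normalization (limma 3.58.1, 3 iterations), median centring, the mean of probe sets, a 1.5-fold threshold and level filters at 5 and 3. Python 3.11.15 and R 4.3.3 were used.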

Additional observations from a re-analysis of the deposited data

How the results depend on the processing

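The 9 genes gave 252 recomputed differences and departures under quantile and cyclic loess normalization, median centring and the mean of probe sets (each of the 9 has 1 probe set, so the last leaves them as they are). None moved by over 1.5-fold, the largest move was 0.13 log2 units, and 0 changed the sign of a difference of at least 2-fold. Of the 22 main values of at least 2-fold, 0 of 88 recomputed values fell below it. In 4 cases a value just under 2-fold passed it: GRHL2 between both and Her2 (-1.09 after quantile normalization, and again after median centring), ESRP2 there (-1.06) and the departure of GRHL2 (-1.03), so that the count of lower genes between both and Her2 went from 2 to 4 after quantile normalization. A 1.5-fold threshold gave 6 of 9 lower genes for Her2 against LacZ (8.04% of all genes), 5 for both against Her2 (8.85%), 2 higher for mutant PIK3CA against LacZ (8.43%) and 6 higher for mutant PIK3CA against Her2 (8.72%). Keeping only genes that reached 5 left 0 lower genes for mutant PIK3CA against LacZ, 1 lower for both against Her2 and 1 higher for mutant PIK3CA against Her2 (1 also with the filter at 3), since ELF3 and GRHL1 drop out. Lower genes for both against mutant PIK3CA went from 7 to 5 with the filter at 5 and to 6 with the filter at 3. With the filter at 5, lower genes went from 3 to 2 for Her2 against LacZ and from 5 to 4 for both against LacZ. With these filters the median for both against LacZ was -1.79 (reaching 5) and -1.94 (reaching 3), over fewer genes. No paired analysis was possible because each group has 1 array. Genes near the array medians (GRHL1, GRHL3, OVOL1, and ELF3 on the array labelled both) are limited by background, so a small difference there does not show an equal level.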
